A study of Mus musculus with 9 samples.

Results

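The 3 control libraries of this series hold the RNA of mouse adult fibroblasts that the labels give as controls, and the account below describes what these cells expressed. They are 3 of the 9 libraries and were chosen by their label alone. The other libraries are 3 from fibroblasts exposed to DPI for 24 h and 3 from fibroblasts exposed for 72 h. DPI is read here as diphenyleneiodonium, an inhibitor of flavoenzymes, because the series concerns flavin cofactor targeting. All 9 libraries were made from total RNA of cultured cells of 1 labelled cell type, with no genetic change named in the labels. The sources used here do not give strain, sex, tissue of origin, passage, DPI dose, the vehicle or the time at which controls were collected, so DPI exposure and time in culture cannot be told apart. Nothing says whether the 3 controls came from separate animals or cultures, so spread between them may be technical.

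Fibroblasts are the cells that build and remodel connective tissue. They secrete fibrillar collagens, fibronectin and the enzymes that fold, trim and cross-link them, and they release growth factors and chemokines that act on neighbouring cells. Stress and antiviral pathways can also be followed in fibroblasts through the genes that these pathways drive. ATF4 drives amino acid synthesis genes when protein synthesis is strained, NRF2 drives antioxidant genes, and the interferon factors drive antiviral genes.

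Sequences upstream of some stress and interferon genes are shown first, because the levels of these genes are described below. Each is the 250 bases before a start site, from RefSeq on GRCm38.p6, written 5′ to 3′ on the strand of the gene, with the motif in capitals. Bst2, Isg15 and Ifit3 encode antiviral proteins and carry the interferon-factor motif, which is GAAA, any 2 bases, then GAAA, or on the other strand TTTC, any 2 bases, then TTTC. Asns, the enzyme that makes asparagine, and Chac1, an enzyme that degrades glutathione, carry the ATF4-type motif TGATGNAA, which reads TTNCATCA on the other strand; both strands were searched for either motif. Overlapping matches share capitals.
Bst2 (chr8:71537473-71537722, minus strand): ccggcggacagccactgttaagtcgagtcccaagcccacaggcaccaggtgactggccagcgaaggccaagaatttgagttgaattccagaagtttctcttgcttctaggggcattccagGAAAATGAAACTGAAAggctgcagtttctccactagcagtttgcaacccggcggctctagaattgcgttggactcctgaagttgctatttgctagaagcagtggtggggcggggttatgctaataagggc
Isg15 (chr4:156200819-156201068, minus strand): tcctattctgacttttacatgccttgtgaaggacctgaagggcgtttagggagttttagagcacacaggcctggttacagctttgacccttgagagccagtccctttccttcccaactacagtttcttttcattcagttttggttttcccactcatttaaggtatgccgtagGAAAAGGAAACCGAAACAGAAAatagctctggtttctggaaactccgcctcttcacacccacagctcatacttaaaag
Ifit3 (chr19:34583279-34583528, plus strand): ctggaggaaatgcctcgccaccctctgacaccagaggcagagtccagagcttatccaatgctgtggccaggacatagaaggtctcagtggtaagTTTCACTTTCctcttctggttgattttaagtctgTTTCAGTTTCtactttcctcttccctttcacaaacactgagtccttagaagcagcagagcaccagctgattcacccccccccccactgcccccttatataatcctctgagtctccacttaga
Asns (chr6:7693210-7693459, minus strand): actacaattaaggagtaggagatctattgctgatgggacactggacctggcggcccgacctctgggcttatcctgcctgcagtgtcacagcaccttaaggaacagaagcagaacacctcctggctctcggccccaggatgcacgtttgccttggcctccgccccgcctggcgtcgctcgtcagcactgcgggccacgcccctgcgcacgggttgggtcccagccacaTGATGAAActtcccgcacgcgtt
Chac1 (chr2:119350992-119351241, plus strand): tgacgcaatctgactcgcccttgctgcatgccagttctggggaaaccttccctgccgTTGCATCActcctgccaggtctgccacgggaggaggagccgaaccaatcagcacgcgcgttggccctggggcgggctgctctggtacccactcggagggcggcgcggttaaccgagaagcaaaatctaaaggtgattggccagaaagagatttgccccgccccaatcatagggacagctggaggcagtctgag

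Over the whole 300-base RefSeq windows (250 bases before to 50 after the start), the interferon motif was present for 20 of the 41 interferon-stimulated genes with an entry, or 48.8%. It was present for 3.99% of all 27025 genes with an entry, and for 3.53% of the 9015 of those that were detected in the controls. The ATF4-type motif was present for 9 of the 29 genes of the ATF4 and integrated stress response list with an entry, or 31.0%, against 4.51% of all genes and 2.50% of detected genes. A match is a run of letters and not a shown binding site.

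The controls held 16405534, 17923656 and 15292736 counts for controls 1, 2 and 3; control 2 was the deepest and control 3 the shallowest of all 9 libraries. To compare genes with each other, counts were divided by each gene's exonic length and scaled to the same total in every library. The result is called the length-scaled level and is given in units. CPM, the count over the library's total after TMM scaling, was used for the computed differences between libraries. Levels are also printed for each control, and an SD given in units is that of the level. The order of the controls can differ between level and CPM. Ccn1 had 2260, 2161 and 2392 units but 1428, 1499 and 1476 CPM. Spread can differ too, with Pkm at 1753 ± 19.7 units and 2813 ± 209 CPM (SD, n = 3). Of 53465 genes in the table, 12640 reached 1 unit in all 3 controls and are called detected. They comprised 10960 protein-coding genes, 709 pseudogenes and 228 long intergenic noncoding RNA genes. The median level of a detected gene was 22.6 units and the 90th percentile was 127.5 units. No count was found for 29601 genes in any control; the limit that a count of 0 allows, 3 counts, equals 0.181, 0.165 and 0.192 CPM in controls 1, 2 and 3 and covers counting error only. Replicates differed little for about 1 in 2 genes: the coefficient of variation of CPM was under 10% for 50.9% of the 10423 genes with a mean of at least 5 CPM. Controls 1 and 3 were closest to each other, with a median size of the log2 CPM difference of 0.08, against 0.21 between controls 2 and 1 and 0.20 between controls 2 and 3. Control 2 therefore stands apart. Values of all 3 controls are given for many genes, and only a mean, a mean ± SD or a range for others. Such a summary does not show control 2 separately.

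The most abundant messages included those of mitochondrial DNA genes, the translation factor gene Eef1a1, ribosomal protein genes and actin genes. The 100 genes of highest count took 17.2% ± 0.683 of all counts (SD, n = 3), and the first 10 took 4.83% ± 0.217. Ribosomal protein genes, 84 in number, took 4.15%, 5.61% and 4.21% of counts in controls 1, 2 and 3, so control 2 had the highest share. Genes of the mitochondrial DNA took 2.43%, 2.09% and 2.15%. Of the 100 genes of highest level, 19 were ribosomal protein genes, 13 lay on the mitochondrial DNA, 35 were annotated pseudogenes and 33 were of other kinds. A pseudogene can share sequence with its parent gene, so how reads were divided between such pairs is uncertain. The highest mitochondrial message was mt-Co2, a cytochrome c oxidase subunit, at 16836, 17668 and 15858 units, followed by mt-Co1 at 15840, 12099 and 14540 units. Gm10925, a nuclear copy of a mitochondrial gene, stood at 19328, 15254 and 16415 units and cannot be told apart from its mitochondrial original here. The mitochondrial shares above leave out such copies and may be too low, as Gm10925 alone had 4100, 3554 and 3401 CPM.

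Outside ribosomal, mitochondrial and pseudogene entries, Eef1a1 led. It lies at chr9:78478449-78489151 on the minus strand (GRCm38) and encodes the factor that delivers aminoacyl-tRNA to the ribosome. Its level was 14202, 15149 and 14377 units in controls 1, 2 and 3. The next gene, Actg1, encoding cytoplasmic gamma-actin, stood at 4531 ± 239 units (SD, n = 3), so Eef1a1 stood above every other gene of this ranking in every control. Ftl1, the ferritin light chain that stores iron, followed at 4123 ± 421 units. Hsp90ab1, a constitutive chaperone, had 3931 ± 85.9 units. Lgals1, the secreted lectin galectin-1, had 3808 ± 252 units. The ranks of Ftl1, Hsp90ab1 and Lgals1 do not differ beyond the spread of their 3 libraries. Eef2, Hspa8, Ptma, Tuba1b and Actb completed the first 10, with mean levels from 3640 down to 2910 units.

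Several mesenchymal proteins with calcium-binding or secreted roles ranked just behind these. S100a6, a calcium-binding protein, had 2568 ± 409 units. S100a4, a calcium-binding protein often used to mark fibroblasts, had 2347, 2532 and 2141 units. Ccn1, a secreted matrix-associated protein downstream of YAP and SRF, had 2260, 2161 and 2392 units and was the highest secreted growth factor modulator. S100a4, Ccn1 and S100a11 (2215 ± 85.4 units) had overlapping values across the 3 controls, so their order does not hold beyond the spread. Glycolytic enzymes were also near the top, with Pgk1 at 1774 ± 189 units and Pkm at 1753 ± 19.7 units.

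**Figure D1:**
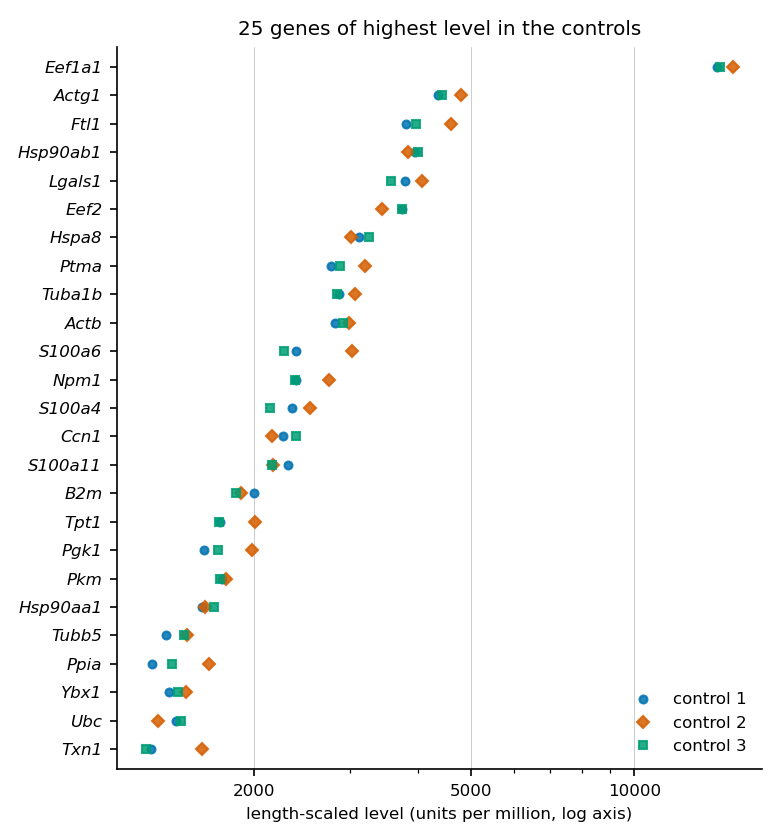
Length-scaled level (units, log axis) of the 25 genes of highest mean level in the controls, leaving out ribosomal protein, mitochondrial and pseudogene entries; each point is 1 control library. Eef1a1 sits alone at 14202 to 15149 units, and the next gene, Actg1, averages 4531 units.

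Ranking by CPM, which favours long messages, brought matrix and cytoskeletal genes forward. Of the 25 genes highest by CPM and the 25 highest by level, 14 were shared. Fn1, encoding fibronectin, had 2783, 1355 and 2576 CPM in controls 1, 2 and 3. Ahnak, a very large scaffold protein, had 3013, 1268 and 2438 CPM. For both genes control 2 was the low library, and the gap to it was wider than that between controls 1 and 3. Col1a2 had 1985, 1829 and 1937 CPM, Col1a1 had 1806, 1592 and 1711 CPM, and the 3 controls lay close together for both collagens. Flna, encoding the actin cross-linker filamin A, had 2044, 1330 and 1870 CPM, again lowest in control 2.

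The labelled identity was checked against 28 fibroblast genes, and most but not all were expressed. Detected in all controls were 22 of the 28, and 13 of them were among the top 10% of detected genes. The 5 defining markers were all there. Sparc, a matrix glycoprotein, had 1084, 1047 and 1112 units. Col1a1 (chr11:94936224-94953042) and Col1a2 (chr6:4504814-4541544), the chains of type I collagen, had 879, 706 and 853 units and 511, 428 and 510 units. Fn1 (chr1:71585520-71653200) had 761, 338 and 722 units. Mmp2, a gelatinase that turns over matrix, had 158, 134 and 144 units. In rank Sparc stood at the 99.1st percentile of detected genes, Col1a1 at the 98.7th, Fn1 at the 98.2nd, Col1a2 at the 97.8th and Mmp2 at the 91.7th. The order depends on the length used: with the longest transcript in place of all exons the level of Col1a2 was 875 units and the level of Col1a1 was 702 units.

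Other mesenchymal genes were high as well. Vim, the intermediate filament vimentin, had 1058, 1116 and 1060.3 units, and Serpinh1, the collagen chaperone HSP47, had 1014, 1067 and 1078 units. P4hb, a subunit of collagen prolyl hydroxylase, had 807, 811 and 811 units, and Itgb1, the beta-1 integrin, had 666, 586 and 674 units. Ly6a (Sca-1) and Cd34, surface markers of mesenchymal progenitors, had 184 ± 5.18 and 149 ± 1.5 units. The platelet-derived growth factor receptors were low beside these: Pdgfrb had 19.4, 13.6 and 18.4 units and Pdgfra had 3.26, 2.08 and 2.75 units.

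The remaining 6 fibroblast genes were under 1 unit in every control. Dcn (decorin) had 25, 19 and 22 counts and Col3a1 (type III collagen) had 47, 21 and 25 counts. Lum (lumican) had 1, 1 and 0 counts, and Fap, a surface protease of activated fibroblasts, had 3, 0 and 0 counts. Thy1, a surface marker of many fibroblasts, and Tcf21, a mesenchymal transcription factor, had no count in any control. The cells thus carried type I collagen messages at high level while these common fibroblast genes were near or at 0.

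Markers of other cell types were mostly at or near 0. Detected in all controls were 2 of 15 macrophage and leukocyte markers, 1 of 10 lymphocyte, 2 of 12 endothelial, 3 of 15 epithelial and keratinocyte, 2 of 9 adipocyte, 1 of 11 skeletal muscle and 0 of 6 erythroid markers. The counts were 5 of 12 for smooth muscle and pericytes, 4 of 13 for chondrocytes and osteoblasts, 4 of 15 for neural, glial and melanocyte markers and 2 of 7 for mesothelium. The summed level of the macrophage and leukocyte list was 17.0 to 19.6 units. Its highest member averaged 10.7 units, and Adgre1, Aif1, Tyrobp and Laptm5 were its 4 members without a count. The summed endothelial list was 8.06 to 9.04 units. Its highest member averaged 3.92 units, and Pecam1 and Cdh5 were under 1 unit in each control. Epcam, Krt5, Krt1, Cldn4 and Cldn7 of the epithelial list had no count, while Krt19, a keratin, had 31.0, 42.4 and 35.9 units.

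Some single markers of other types stood out. Msln (mesothelin), a surface protein of mesothelial cells, had 430, 451 and 470 units, while Wt1, Upk1b and Bnc1 of the same list of 7 had no count and Krt19, given above, is its other detected member. Tubb3, a tubulin used to mark neurons, had 97.2, 99.0 and 88.4 units, while Sox10, Snap25, Elavl4 and Rbfox3 had no count. Pparg, a regulator of fat cells, had 47.0, 47.6 and 41.6 units, while Adipoq, Lep, Plin1 and Cidec had no count. Sox9 and Runx2, regulators of cartilage and bone, had 26.7 ± 0.42 and 16.2 ± 2.81 units. Of the same list Col2a1, the cartilage collagen, was under 1 unit in every control and Matn1, Sp7 and Ibsp had no count, while Acan (aggrecan) had 5.70, 3.09 and 4.56 units. In bulk RNA, a few cells with much of a message and many cells with little of it cannot be told apart.

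**Figure D2:**
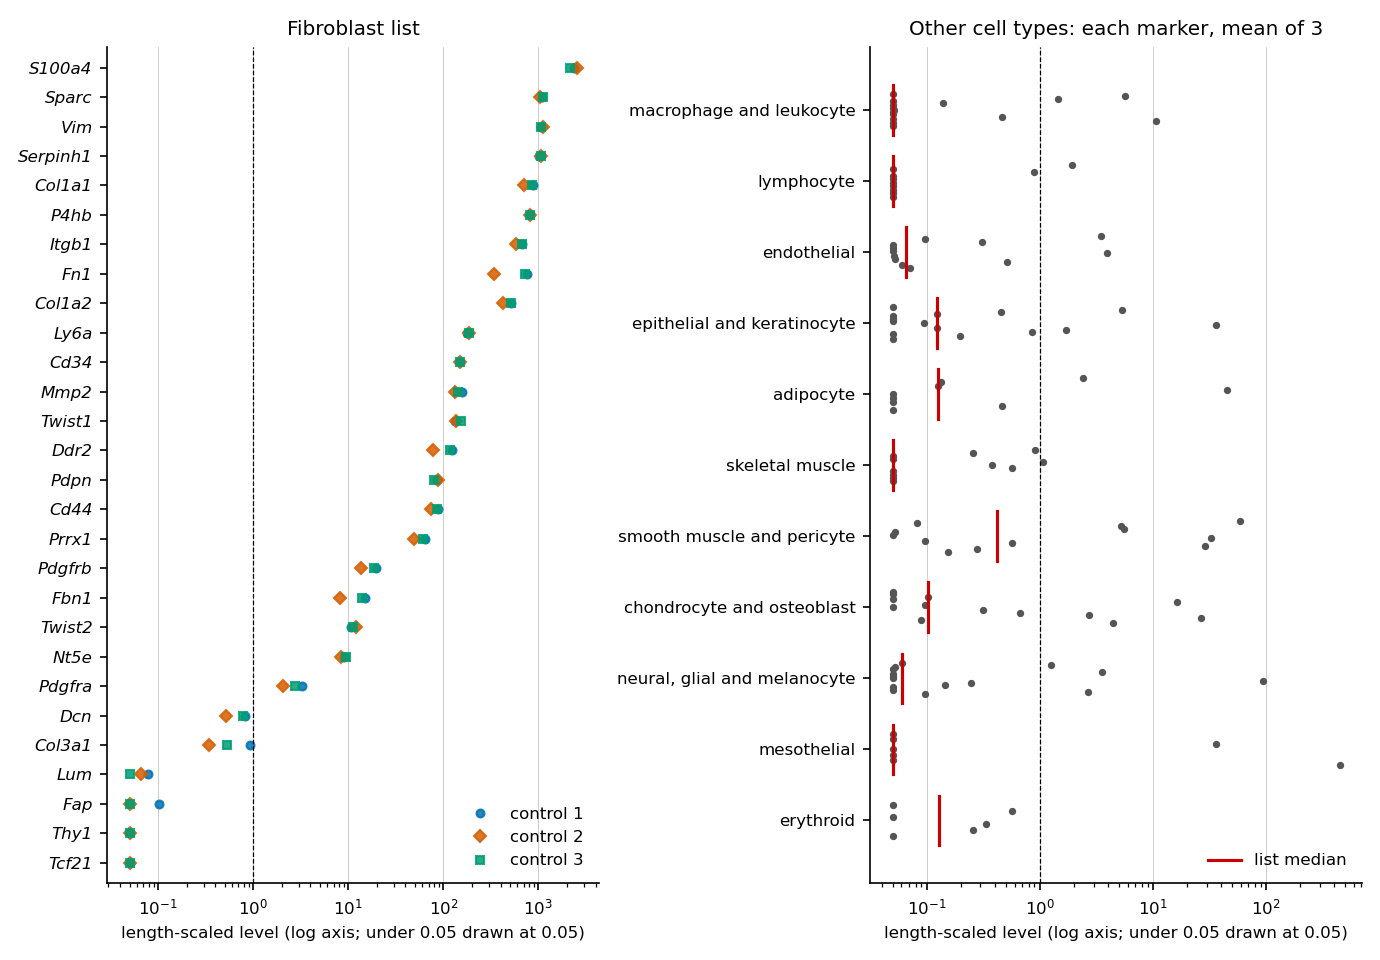
Left, length-scaled level (log axis) of the 28 fibroblast genes in each control; right, mean level over the 3 controls of each marker of 11 other cell types, with the list median as a red bar and 1 unit as a dashed line. On the left 22 genes lie beyond 1 unit, and on the right every list median lies below it.

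Smooth muscle and contractile genes were present in part. Acta2, the actin that marks myofibroblasts, had 25.4, 30.2 and 31.9 units, close to the median detected gene. Tagln, another contractile marker, had 11.3, 13.5 and 9.67 units, and Cnn1 was under 0.5 units in every control. The contractile and mechanical list of 21 genes had 18 detected and 11 in the top 10%, led by Actg1, Actb, Ccn1, Vim, Tpm1, Tagln2 and Flna. The contractile markers Acta2, Tagln and Cnn1 were thus far below these leaders.

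Genes that record sex and body position were expressed in part. Xist, the RNA that silences an X chromosome in female cells, had 178, 81.9 and 176 units. The Y-linked genes were at 0 or nearly so: Eif2s3y had no count, Ddx3y 1 count and Kdm5d 1 count in control 3 alone, and Uty 3 counts in control 2 alone. Of 63 positional transcription factors, 20 were detected and 24 had no count. The highest were Tbx15 at 31.2, 31.5 and 34.1 units and Shox2 at 22.7, 21.2 and 22 units. Among the Hox genes, which record position along the body axis, Hoxa5 led with 12.8, 14.3 and 12 units. Every gene of the HoxC and HoxD clusters on the list was under 0.1 units on average.

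Matrix genes were expressed in part, with type I collagen chains among the highest and Col3a1 near 0. Of 21 collagen chains 15 were detected, and 4 were in the top 10%: Col1a1, Col1a2, Col5a2 (308, 264 and 318 units) and Col6a1 (323, 244 and 321 units). The basement membrane chains Col4a1 and Col4a2 had 105 ± 17.4 and 92.4 ± 14.7 units. By level, every collagen chain among the 8 highest was lowest in control 2. Among 35 glycoproteins and proteoglycans, 22 were detected and 8 were in the top 10%. Spp1 (osteopontin), a secreted adhesive phosphoprotein, led with 1189, 1099 and 1055 units, above Sparc by less than the spread of its replicates. Bgn (biglycan) had 444, 317 and 394 units. Postn, Eln, Vcan, Thbs2 and Tgfbi were each under 1 unit in all controls.

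Enzymes that mature the collagen triple helix were nearly all present, with 14 of 15 detected and 6 in the top 10%. Behind Serpinh1 and P4hb, the prolyl hydroxylase P4ha1 had 155, 147 and 163 units and the cross-linking enzyme Lox had 155, 124 and 151 units. Only P4ha3 was under 1 unit in every control. Of 22 matrix proteases, 14 were detected, led by the lysosomal protease Ctsd (438, 465 and 412 units) and the serine protease Htra1 (292, 318 and 305 units). The inducible collagenases and stromelysins Mmp3, Mmp10 and Mmp13 had no count. Protease inhibitors were represented by Timp2 (518, 443 and 517 units), Timp1 (376, 407 and 351 units), Cst3 and Timp3, with 7 of 13 detected. The summed inhibitor list held 1384 to 1432 units, against 1504 to 1536 units for the protease list.

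Among secreted signals, a few factors were abundant and many were silent. Of 60 growth factors and their secreted modulators, 39 were detected and 3 were in the top 10%. After Ccn1 came Grn (progranulin) with 210, 203 and 206 units and Csf1, the macrophage growth factor, with 165, 131 and 156 units. Ccn2, a profibrotic relative of Ccn1, had 120.1 ± 4.31 units and lay far below Ccn1 in every control. Igfbp4, Fstl1, Vegfb, Vegfa and Igfbp6 lay between 57.0 and 98.0 units. The level of Fgf2 averaged 1.05 units and that of Hgf 1.06 units. Below 1 unit in every control were 15 of the 60, among them Igf2, Igfbp2, Igfbp5, Sfrp1, Sfrp2, Wnt2, Grem1 and Fgf10.

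The chemokine and cytokine list had 18 of 35 detected, and was led by Mif, a constitutively made cytokine, at 1304, 1497 and 1288 units. The soluble pattern receptor Ptx3 followed with 121, 148 and 134 units. The chemokines Ccl5 (124, 97.0 and 90.8 units), Cxcl10 (75.9, 78.3 and 75.9 units), Cxcl1 (61.0, 57.4 and 59.9 units) and Ccl2 (40.3, 47.5 and 42.6 units) were above the median detected gene. C3, the central complement component, had 20.5, 8.85 and 12.7 units and varied over 2-fold between controls. The inflammatory cytokines Il1b and Tnf were under 1 unit in every control, and Il6, with 19, 8 and 5 counts, averaged under 1 unit. Receptors were broadly expressed, with 25 of 26 detected and Axl, a receptor tyrosine kinase, the highest at 297, 243 and 289 units.

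**Figure D3:**
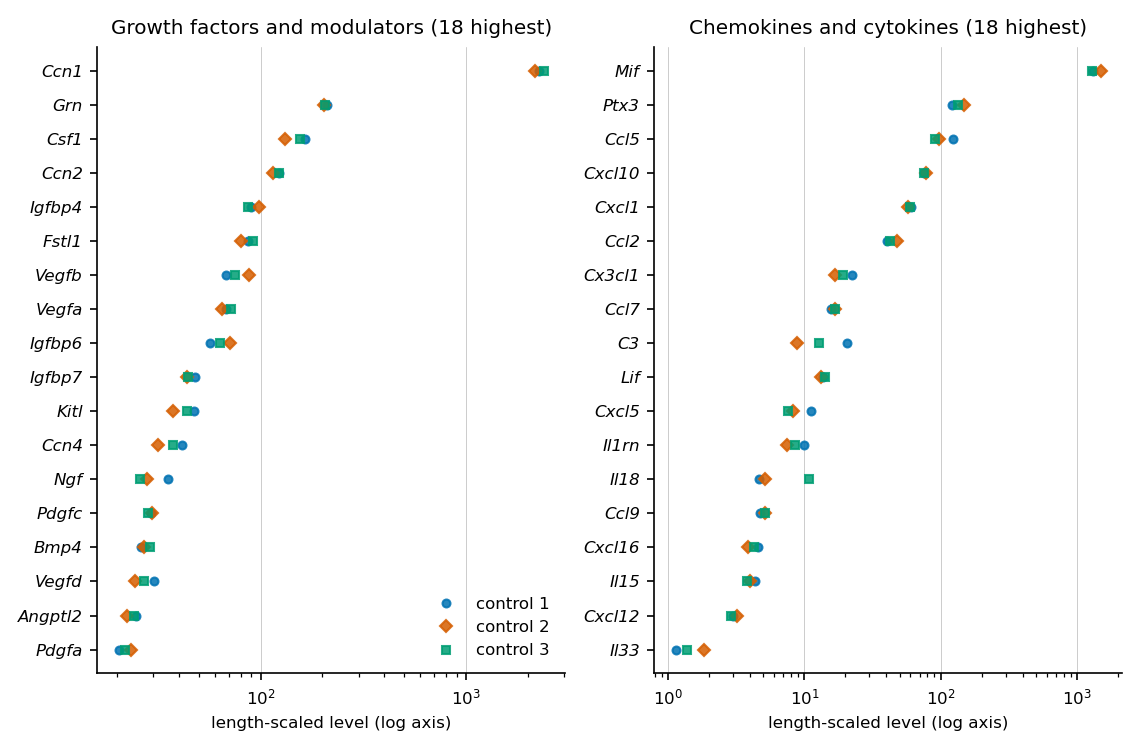
Length-scaled level (units, log axis) in each control of the 18 highest growth factors and modulators (left) and the 18 highest chemokines and cytokines (right); each point is 1 control library. Ccn1 and Mif lie above 1000 units in all 3 controls, and the next gene of either panel lies at or below 210 units.

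Antiviral genes were expressed at a moderate level, with interferon messages at or near 0. Of 54 interferon-stimulated genes, 49 were detected, but only 19 were at or above the median detected gene in all 3 controls and only 3 were in the top 10%. The median of the list was 19.5 units, against 22.6 units for detected genes. Leaving out control 2 raised the count at or above the median from 19 to 25. It was 20 without control 1 and 21 without control 3, and in each case fewer libraries had to pass. None of 19 interferon genes was detected: Ifne had 1, 2 and 1 counts, Ifnb1 0, 4 and 0 counts, Ifnz 5, 0 and 0 counts, and 16 had no count at all.

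The level within the list was uneven. Bst2 (tetherin), which holds budding virions at the membrane, had 650, 653 and 643 units, or 649 ± 4.92 (SD, n = 3). Ifi27 had 301, 313 and 307 units and Isg15, a ubiquitin-like modifier, had 302, 288 and 285 units. These 3 genes were steady by level across the controls. The next of the 8 highest were Lgals3bp, Ifit3, Oasl1, Ifi35 and Eif2ak2, between 41.4 and 94.9 units, and others such as Ifit1 (76.5, 48.8 and 62.1 units) lay in the same range. Irf7, the factor that amplifies the response, had 42.7, 28.5 and 37.1 units. Mx1, Iigp1 and Oas3, antiviral effectors often strongly induced by interferon, averaged 0.297, 0.779 and 0.823 units. Reads of Ifit3 and Ifit3b, and of Oas1a and Oas1b, may be shared because these copies are nearly identical.

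The means to sense nucleic acid and interferon were in place at lower levels. Of 28 receptors, sensors and signal proteins 24 were detected and none was in the top 10%. Jak1, the kinase bound to interferon receptors, led with 105, 79.4 and 106 units. Cgas and Tmem173, which encodes STING, the sensor of cytosolic DNA and its adaptor, averaged 42.4 and 16.9 units. Antigen presentation genes were all detected, 14 of 14. B2m, the light chain of MHC class I, had 2003, 1894 and 1857 units, with H2-D1 at 572, 580 and 594 units and H2-K1 at 416, 425 and 443 units. H2 genes have near-identical copies, so their single values are uncertain.

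The stress lists stood well above the median detected gene. The NRF2 and antioxidant list had all 33 members detected and 17 in the top 10%, with a median of 129.5 units. Ftl1, Fth1 and Txn1 led it, and Hmox1, which degrades haem, had 215, 222 and 229 units. The ATF4 and integrated stress response list had 33 of 35 detected and 16 in the top 10%, with a median of 97.5 units. Its high members included the serine synthesis enzymes Phgdh (773, 895 and 789 units) and Psat1 (623, 611 and 640 units). Atf4 itself had 683, 763 and 702 units, and Asns, whose upstream sequence is printed above, had 525, 582 and 561 units. Ddit3, encoding the stress factor CHOP, had 115, 143 and 132 units, and Chac1 had 82.2, 109 and 110 units. Stc2 and Cbs of this list were under 1 unit in every control. No unstressed reference outside these libraries was used, so these are levels and not a degree of stress.

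Chaperone lists were fully expressed. All 23 genes of the endoplasmic reticulum list were detected, 9 in the top 10%, and Hspa5 (BiP) had 772, 817 and 808 units. All 18 cytosolic heat shock genes were detected. Constitutive members were far higher than inducible ones: Hspa8 averaged 3131 units, whereas Hspa1b averaged 55 units and Hspa1a 2.06 units, although reads of that near-identical pair may be divided arbitrarily. Hspb1 was the least steady member, with 13.8, 37.2 and 18.9 units.

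Cell cycle genes were high in every control, together with an inhibitor. All 23 G1/S and replication genes and all 22 G2/M and mitosis genes were detected, 11 and 10 of them in the top 10%. Pcna, the replication clamp, had 386, 417 and 380 units, and Top2a, which untangles replicated DNA, had 429, 326 and 453 units. Mki67 had 223, 89.5 and 222 units, lowest in control 2. Cdkn2a, the locus of the tumour suppressors p16INK4a and ARF, had 663, 784 and 649 units and was the highest of 29 p53 and senescence genes, all of which were detected. Gene counts do not separate its products. Cdkn1a, the p53 target p21, had 61.4, 65.8 and 72.2 units. Among immediate early genes 19 of 20 were detected; Jund led with 275, 357 and 288 units, whereas Fos had 3.44, 2.79 and 4.53 units and Fosb 2.1, 0.719 and 1.94 units. Glycolytic and lysosomal genes were broadly expressed, with 17 of 18 and 26 of 26 detected and median levels of 129.9 and 135.7 units.

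**Figure D4:**
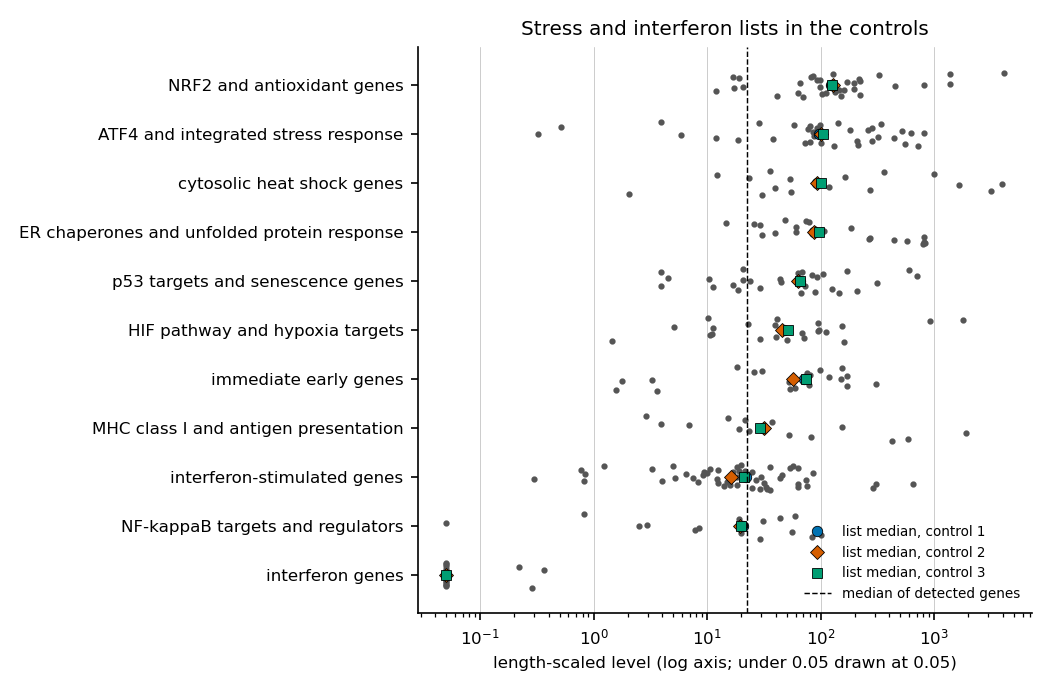
Length-scaled level (units, log axis) of each gene of 11 stress, immune and interferon lists as a grey dot (mean of 3 controls), with the list median in each control as a coloured mark and the median detected gene as a dashed line. The NRF2 and ATF4 lists lie highest and the interferon genes lie at the left edge in all 3 controls.

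Control 2 departed from controls 1 and 3 along with message length: by median, long messages were lower and short ones higher. Of 10415 genes with a mean of at least 5 CPM and a known length, 88 (0.845%) were at least 2-fold lower in control 2 and 27 (0.259%) at least 2-fold higher. That mean includes control 2, so a gene high in control 2 alone could pass the minimum. For each of the other 8 libraries against the others of its own group, 6 to 32 genes were lower and 8 to 25 higher, so both counts were highest for control 2, by little for higher genes and by much for lower genes. The counts depend on the minimum: at a mean of at least 1 CPM 231 were lower and 89 higher, and at 20 CPM 52 and 5. At 1.5-fold, 499 genes (4.79%) were lower and 144 (1.38%) higher, against 20 to 74 and 28 to 121 for the other libraries. Control 2 was singled out with results of these data known, so these values are a description with no test, and the counts of controls 1 and 3 have control 2 in their reference.

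The difference followed exonic length. Spearman's correlation between length and the log2 difference was -0.65 across the 10415 genes for control 2, a description over genes that share 1 library. It was 0.53 for both controls 1 and 3, whose reference includes control 2, and between -0.06 and 0.06 for the 6 DPI libraries. The median log2 difference of control 2 went from 0.34 for the shortest of 10 length classes to -0.39 for the longest, a slope of -0.18 per doubling of length. The correlation with GC content was 0.21. The 88 lower genes had a median exonic length of 9.92 kb and the 27 higher genes 0.738 kb. After the median of each length class was subtracted, 61 genes were at least 2-fold lower and 19 higher. These included 45 of the 88 lower genes and 17 of the 27 higher genes.

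**Figure D5:**
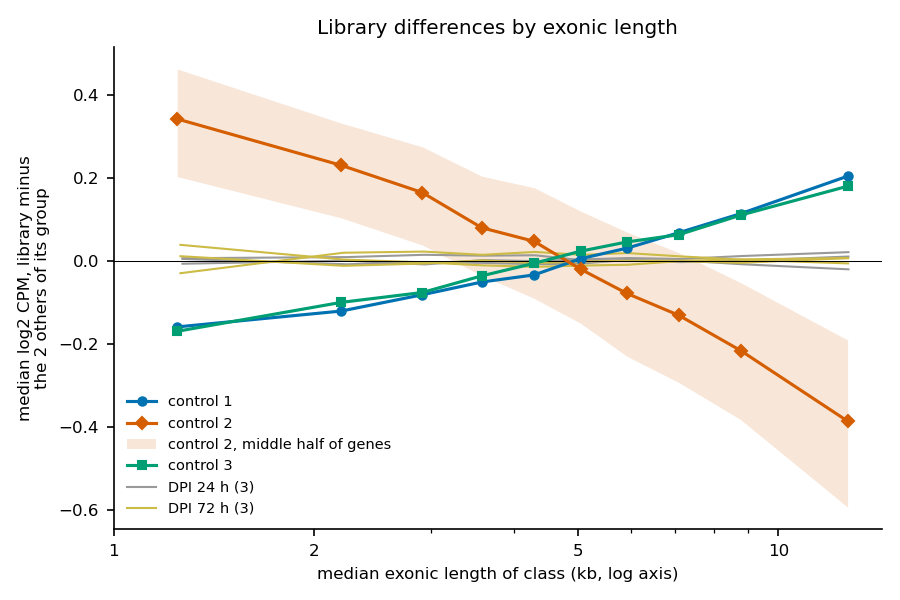
Median log2 CPM difference of each library from the 2 others of its group (y axis) against the median exonic length of 10 classes of genes (x axis, kb, log axis), with the interquartile range of control 2 shaded. Control 2 runs from 0.34 down to -0.39, controls 1 and 3 run the other way because control 2 is in their reference, and the DPI libraries lie near 0.

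The named genes low in control 2 included large scaffold, transport and nuclear proteins. Zfp871, a zinc-finger gene, had 73.1, 23.8 and 70.6 CPM in controls 1, 2 and 3. Lnpep, a membrane aminopeptidase, had 96.4, 33.7 and 91.5 CPM. Rnf213, a giant ubiquitin ligase, had 494, 171 and 399 CPM. Dst (dystonin), a linker of cytoskeletal filaments, had 514, 203 and 478 CPM, and Syne1 (nesprin-1) had 117, 42.9 and 111 CPM. Lcor, Farp2, Hipk2, Ccdc15, Vps13c, Ptar1 and Adnp complete the 12, with log2 differences from -1.46 to -1.28. After length classes were allowed for, the 8 lowest were Farp2, Ccdc15, Adnp and Lcor of these 12, with Zfp382, Klhl11, Uprt and Mtcp1.

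Genes high in control 2 were fewer. The minimum of 5 CPM is a mean that includes control 2. Ulk4, Rpl36a-ps1, Prl2c3, Prrg2 and Vps37d, each under 5 CPM in both other controls, passed it through control 2. Ulk4, a kinase-like protein, had 3.19, 15.5 and 3.32 CPM, and its log2 difference after the length adjustment was 2.31. Pcdhgc4, a protocadherin, had 6.26, 20.5 and 5.30 CPM. Hspb1, a small heat shock protein, had 4.46, 13.2 and 5.94 CPM. Rpl13, a ribosomal protein of the large subunit, had 464, 762 and 452 CPM and was the most abundant of the 12 named. Rpl36a-ps1, Rpl9-ps6 and Rps27rt are ribosomal protein copies and Prl2c3 belongs to a family of near-identical prolactin-like genes, so their values depend on how reads were divided. Prrg2, Fdx1l, Vps37d and Mrm2 complete the 12, at 0.91 or less on the log2 scale.

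Some genes differed more, and were picked after their values were seen. Gm45234 had 67.8, 0 and 38.5 CPM, Zbed6 had 10.6, 0 and 18.6 CPM, and Gm26718 had 0, 18 and 0 CPM. Gm28661 had 245, 4.52 and 26.8 CPM, so controls 1 and 3 differed from each other too. In the DPI 72 h libraries it had 600, 672 and 36.5 CPM. Gm28661 is an annotated pseudogene that lies near Gm10925, so how its reads were divided is uncertain. Zbed6 lies within an intron of another gene, and where genes overlap, the counting may assign reads to either.

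The departure touched the lists unevenly. The median log2 difference of control 2 over 48 interferon-stimulated genes at 5 CPM or more was -0.32, and it was -0.35 with length classes allowed for, against 0.01 and 0.00 for all genes. Of these 48, 7 were at least 1.5-fold lower in control 2, against 4.79% of all genes. Collagen chains had a median of -0.26, which was -0.13 after the adjustment, and receptors had -0.26 and -0.10. Glycolytic genes had 0.20 and 0.15, the NRF2 list 0.17 and -0.01, and the ATF4 list 0.13 and 0.01. The fibroblast list had -0.01 and -0.01. Of single genes, Fn1 differed by -0.98, or -0.60 with length allowed for, Xist by -0.96, or -0.57, and Mki67 by -1.16, or -0.94.

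The baseline genes were also followed into the DPI libraries, with edgeR's quasi-likelihood test over all 14088 genes that passed its filter. Of the 100 genes of highest control level, 48 were called at 24 h with a Benjamini-Hochberg adjusted p under 0.05: 7 higher and 41 lower. Of all genes tested 24.7% were called, 12.4% higher and 12.3% lower. The median log2 change of the 100 was -0.30, against -0.01 for all genes. At 72 h 15 of the 100 were called, 6 higher and 9 lower, where 8.56% of all genes were called, 4.73% higher and 3.83% lower. The median of the 100 was then -0.17, against -0.01. For the 100 genes highest by CPM, which favours long messages, 20 were called higher and 31 lower at 24 h (median -0.09) and 15 higher and 7 lower at 72 h (median 0.00), so the balance of calls at 72 h turned with the ranking. All comparisons share the 3 controls. The 24 h count was 31 to 33 without any 1 of the 3 DPI 24 h libraries (31 without replicate 3), and the 72 h count rose to 27 without control 2.

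By kind, the calls at 24 h comprised 11 of the 19 ribosomal protein genes, all lower, and 15 of the 35 pseudogenes, all lower. They also comprised 4 of the 13 mitochondrial genes, 2 in each direction, and 18 of the 33 others, 5 higher and 13 lower. Of all genes tested at 24 h, 24.7% were called, 12.4% higher and 12.3% lower. Because reads may be divided between a pseudogene and its parent gene, calls of different kinds may not be separate. At 72 h no ribosomal protein gene of the 100 was called by edgeR, and their median log2 change was -0.17, against -0.36 at 24 h. Control 2, the library with the highest ribosomal protein share, is in the reference of both.

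In each of the 10 highest named genes the SD of the controls exceeded that of the 24 h libraries. Eef1a1 had 11078, 12979 and 10953 CPM in the controls and 9173, 9016 and 8953 CPM at 24 h, a log2 change of -0.37 ± 0.06 (SE) with an edgeR adjusted p of 0.00171. The 2 groups did not overlap. At 72 h it had 11254, 11016 and 10212 CPM, overlapping the controls, and its log2 change of -0.11 ± 0.06 was not called (edgeR adjusted p = 0.350). Ftl1 had 1594, 2119 and 1625 CPM in the controls and fell by 0.72 ± 0.09 on the log2 scale at 24 h (edgeR adjusted p = 0.000299) and by 0.91 ± 0.09 at 72 h (edgeR adjusted p = 0.000143). No DPI library exceeded 1116 CPM for Ftl1. Hspa8, a constitutive chaperone, had 4194, 4458 and 4286 CPM in the controls and fell at both times, by 0.40 ± 0.04 and 0.26 ± 0.04 (edgeR adjusted p = 0.000049 and 0.00212).

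Lgals1 alone of the 10 rose at 24 h, from 1106 ± 143 to 1465 ± 43.6 CPM (SD, n = 3), with a log2 change of 0.41 ± 0.09 (edgeR adjusted p = 0.00758). At 72 h its change of 0.25 ± 0.09 was not called (edgeR adjusted p = 0.118). Eef2 and Hsp90ab1 were called lower at 24 h and not at 72 h. Actg1, Ptma, Tuba1b and Actb were called at neither time.

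The lists that define the baseline moved in different directions under DPI. Of 24 fibroblast genes tested, 18 were called higher and 1 lower at 24 h, with a median log2 change of 0.61, and 10 higher and 2 lower at 72 h, with a median of 0.19. Of 18 collagen chains tested, 14 were called higher at 24 h and 11 at 72 h, and none lower. Of 53 interferon-stimulated genes tested, 1 was called higher and 39 lower at 24 h and 0 higher and 51 lower at 72 h, with medians of -0.97 and -2.29. Of 35 ATF4 list genes, 32 were called lower at 24 h, whereas 8 were called higher and 1 lower at 72 h. Of 26 lysosomal genes, 11 were called higher and 1 lower at 24 h and 0 higher and 19 lower at 72 h. The background shares are those given above. Exonic length moves with control 2 in the control group, and its part in these counts was not tested.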

How the data were processed

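RNA-seq was measured in 9 libraries of mouse adult fibroblasts: 3 controls, described here, and 3 each after DPI for 24 h and 72 h. Per the labels' protocols, total RNA was purified on columns and sequenced on an Illumina instrument. Per the submitters' processing notes, the tools were STAR, RSEM, cutadapt, Trim Galore, edgeR and limma, with the build GRCm38. The sources used here do not give their versions, order or strand setting, so antisense and overlapping genes cannot be told apart. The authors deposited whole-number counts per Ensembl gene, which were used as deposited; RSEM estimates counts, and whether these were rounded is not given. Of 53465 IDs, 105 had no symbol, with at most 0.0097% of a library's counts.

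Symbols, coordinates and union exonic lengths came from the GENCODE annotation of GRCm38. CPM used TMM factors over all 9 libraries. The length-scaled level is counts per exonic kilobase scaled to the same total (that of CPM) in every library, without effective-length correction. Differences of control 2 used log2(CPM + 0.5) at a mean of at least 5 CPM, against the mean of controls 1 and 3. DPI contrasts used edgeR 4.0.16 (glmQLFit, glmQLFTest, two-sided, R 4.3.3) with 1 mean per group over all 9 libraries, filterByExpr and Benjamini-Hochberg adjustment at 0.05; each SE is the size of the log2 change over the square root of the F statistic. On simulated counts with known changes at 24 h (13939 genes) the fit recovered 40.3% of 1.5-fold, 94.3% of 2-fold and 100% of 4-fold changes, and 4.22% of its calls were unchanged genes. Whether these shares hold for the measured libraries, where control 2 stands apart, was not tested. A single value in 3 against 3 libraries cannot reach an exact p under 0.1.

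The control group, its gene lists and the interest in control 2 were chosen with earlier results of these data known. Named genes were the 25 highest by level and by CPM outside ribosomal, mitochondrial, pseudogene and predicted entries, up to 8 (12 for growth factors and cytokines) highest members of each list and members under 1 unit, the 12 protein-coding genes farthest above and below in control 2 where controls 1 and 3 differed by under 0.5, and a set of markers; some members that this rule names are left out here. Other genes were named after their values were seen: further list members beyond these, Gm10925, mt-Co1 and mt-Co2, and the extremes of control 2. Alternatives were other scalings, filters, lengths and tools (DESeq2 1.42.0), leaving out each library in turn, a block for the replicate number and a length-class adjustment chosen after seeing the data.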

Additional observations from a re-analysis of the deposited data

Results flagged for a closer look

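Of the 10 most abundant named genes of the controls, 4 had a DPI effect that differed between 72 h and 24 h in the edgeR fit; the difference is the log2 change at 72 h minus that at 24 h, and controls cancel from it. For Eef1a1 it was 0.26 (edgeR adjusted p = 0.0135), with changes of -0.37 at 24 h and -0.11 at 72 h. For Eef2, the ribosomal translocation factor, it was 0.23 (edgeR adjusted p = 0.00338), with -0.31 and -0.08. For Hspa8 it was 0.14 (edgeR adjusted p = 0.0273), with -0.40 and -0.26. For Actb, the cytoplasmic beta-actin, it was 0.20 (edgeR adjusted p = 0.0492), with -0.11 and 0.09. All 3 libraries at 72 h exceeded all 3 at 24 h for each of these genes.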

How the results depend on the processing

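The cause of each shift below was not tested unless the setting itself shows it. Without ribosomal protein and mitochondrial genes, the 100 most abundant genes took 14.9% of counts. With a minimum mean of 1 CPM in place of 5, 89 genes were 2-fold above and 231 below in control 2; with 20 CPM, 5 and 52. Set against 1 other control alone, control 2 had 32 to 39 genes above and 75 to 114 below. Of the 100 most abundant genes, 31 to 57 were called at 24 h and 10 to 27 at 72 h when each library was left out (27 without control 2); at 72 h, 35 were called with no filter and 9 with only the 6 libraries compared. DESeq2 called 54 and 18. The number of genes detected in controls was 12954, 13232 and 12923 without controls 1, 2 and 3, since fewer libraries had to pass. Same-numbered control and DPI libraries did not deviate together (correlations of deviations from -0.09 to 0.00). The departure of control 2 enters the deviations of all controls, so these values cannot show whether same-numbered libraries share an origin. With a replicate block 46 and 12 genes were called. With the longest transcript as length, 15 of 317 named genes moved by over 1.5-fold, including the level of Eno1 (1991 units), the level of Col1a2 (875 units), the level of Pkm (2811 units) and the level of Cd34 (277 units), and 11 of 28 fibroblast genes were in the top 10%. Depth limits values under the level of 3 counts, and union exonic length understates genes whose cells use a short transcript.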

Other observations

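Long intergenic noncoding RNAs were a small class in the controls, with 228 detected. Bc1, a short RNA known from neurons, was the highest at 1173, 1281 and 1126 units in controls 1, 2 and 3, and it is only 168 bases long, so few reads make its level high. Malat1, a nuclear RNA of most cell types, had 536, 340 and 549 units. AY036118 had 515, 229 and 321 units and was the least steady of these 3. Snhg6, a host of small nucleolar RNAs, had 111, 136 and 126 units, highest in control 2, while Malat1 was lowest there. The exonic lengths of Malat1, Snhg6 and AY036118 are 6983, 1146 and 923 bases; AY036118, the shortest, was lowest in control 2 as well.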
